A study of Equus caballus with 20 samples.

Results

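The collagens and stromal matrix genes of the mare's oviduct are described here. They were taken as every row of the gene table whose symbol starts with COL, a number, A and a number, together with 15 named genes of the connective tissue matrix and of the cells that make it. The rule found 57 of 26740 features. Of these, 43 came by the symbol pattern and 14 by name; VCAN, the proteoglycan versican, has no row under that symbol. COL4A3BP fits the pattern but encodes a ceramide transfer protein, so 42 of the 43 are collagen genes.

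RNA had been sequenced from epithelial cells of the oviduct of Warmblood mares 4 days after ovulation, taken where the wide ampulla meets the narrow isthmus. The 20 libraries form 4 groups of 5 biological replicates, given in this order throughout: pregnant mares, oviduct on the ovulation side (pregnant ipsilateral, PI); pregnant mares, other oviduct (pregnant contralateral, PC); cyclic, that is non-pregnant, mares, ovulation side (cyclic ipsilateral, CI); and cyclic mares, other oviduct (cyclic contralateral, CC). The labels state no treatment and no age for the mares. Libraries are named by group and replicate number, as in PI1, and values are normalized counts, that is reads brought to a common scale by 1 factor per library.

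Collagens are triple helices of 3 chains that form the scaffold of connective tissue. Fibrillar collagens build the fibrils, fibril-associated collagens and small leucine-rich proteoglycans coat them and set their spacing, and network collagens form the sheet of basement membrane on which an epithelium rests. In the oviduct the fibrils lie in the lamina propria under the folded epithelium and between the muscle layers, where fibroblasts make most of them, while epithelial cells themselves make some basement membrane and anchoring collagens.

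Of the 57 genes, 48 exceeded 1 CPM (counts scaled to the library total) in at least 5 libraries and were tested: 33 collagens, COL4A3BP and the 14 named genes. The other 9 lay below that level. COL10A1, a collagen of growth plate cartilage, had no read in any library, where the limit that a count of 0 allows is 3 reads, or 1.75 to 7.03 normalized counts by library. COL28A1 reached 11.5 in CC5, and COL11A1, COL19A1, COL25A1, COL26A1, COL8A2, COL9A1 and COL9A3 did not exceed 5.38 in any library.

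The whole set took a small share of each library. It was 0.138, 0.242, 0.287, 0.164 and 0.214% of the reads in PI1 to PI5 and 0.178, 0.207, 0.270, 0.226 and 0.186% in PC1 to PC5. In the cyclic mares it was 0.306, 0.270, 0.25, 0.230 and 0.252% in CI1 to CI5 and 0.356, 0.372, 0.398, 0.183 and 0.214% in CC1 to CC5. The highest shares were those of 3 cyclic contralateral libraries and the lowest was that of PI1, and the groups overlapped. The exact (Clopper-Pearson) 95% interval was 0.134 to 0.143% in PI1 and 0.393 to 0.403% in CC3; such intervals and limits cover counting error only.

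Depth ran from 2795168 reads in PI1 to 10126484 in CI2, and in PI1, PI4 and CI3 a single feature took 14.4, 27.8 and 15.4% of the reads. The shares of the set are of all reads, with that feature included in the total. The label of epithelial cells was checked against marker genes. Summed over 8 epithelial markers with a row, of 12, the groups ran from 6076 to 9612 (PI), 6868 to 11255 (PC), 7298 to 10652 (CI) and 7274 to 11588 (CC) normalized counts. Summed over 10 multiciliated markers, they ran from 72288 to 97836 (PI), 72275 to 94400 (PC), 54341 to 77015 (CI) and 54198 to 82912 (CC) normalized counts. Fibroblast markers outside the set, 15 of 18 with a row, summed to 1293 to 2043 (PI), 1533 to 2378 (PC), 1796 to 2581 (CI) and 1450 to 3306 (CC). Smooth muscle markers summed to 1028 to 1346 (PI), 1050 to 2496 (PC), 859 to 1487 (CI) and 961 to 2028 (CC), and endothelial markers to 380 to 1608 (PI), 369 to 1569 (PC), 359 to 933 (CI) and 451 to 1223 (CC). Transcripts of fibroblast, smooth muscle and endothelial marker genes were thus found in every library. Fewer cells of a type and less RNA per cell cannot be told apart in such samples.

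**Figure D1:**
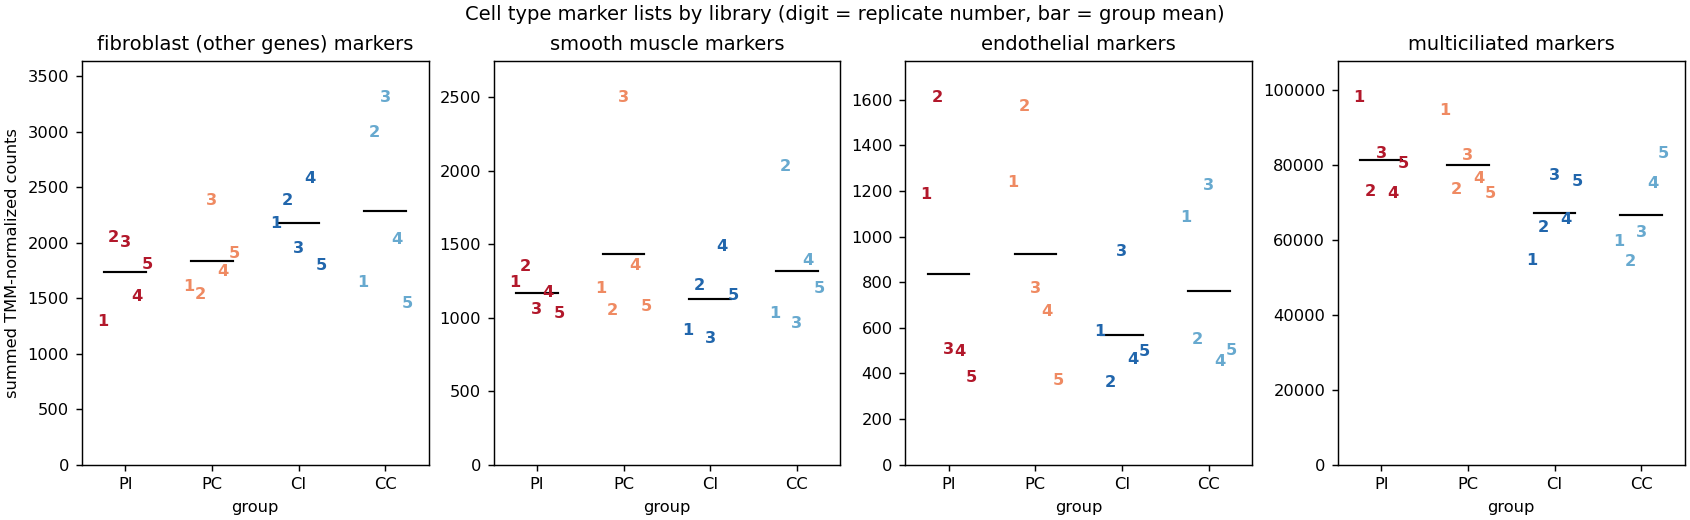
Summed normalized counts (linear axis from 0) of 4 lists of cell type markers by group, each digit a library with that replicate number and each bar a group mean. The fibroblast sum was lowest in PI1 at 1293 and highest in CC3 at 3306, while the multiciliated sums of the pregnant groups began at 72275 and those of the cyclic groups at 54198.

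Whether matrix genes differ with pregnancy was asked on each side of ovulation. No gene of the set passed the test in either oviduct. COL6A6, an alternative chain of the beaded filament collagen VI, had higher values in the pregnant mares, and OGN, LUM, COL27A1 and COL4A6 had lower ones, but none had an adjusted p under 0.999. On the ovulation side 10 of the 48 genes had a higher and 38 a lower fitted value in pregnant mares, with a median log2 difference of -0.34, beside 48.1% of all 14692 features tested with a higher value, 51.9% with a lower one and a median of -0.01. On the other side 12 were higher and 36 lower, with a median of -0.31, beside 51.8% of all features higher, 48.2% lower and a median of 0.01.

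These medians rested partly on a few libraries. Without PI1, PI4 and CI3 the ipsilateral median was -0.01, and without PI1 alone it was -0.17. Without CC3 the contralateral median was -0.09, without CC2 it was -0.18, and without CC5 it was -0.51, and with edgeR or DESeq2 on all libraries it was -0.51 and -0.50. The fibroblast markers outside the set had median log2 differences of -0.43 on the ovulation side and -0.14 on the other, with 2 higher and 9 lower of 11 tested, and the 10 multiciliated markers 0.28 and 0.31, all 10 higher on each side. Leukocyte markers had medians of 0.48 (5 of 7 higher) and 0.76 (7 of 7 higher), and summed to 422 to 1290 (PI), 629 to 2080 (PC), 434 to 1338 (CI) and 520 to 917 (CC) normalized counts. Mesothelial markers had medians of 0.41 (4 of 4 higher) and 0.15 (3 of 4 higher), and endothelial markers 0.27 and 0.07 (5 of 8 higher on each side). Smooth muscle markers had medians of 0.05 (4 of 8 higher) and 0.10 (5 of 8 higher). Pericyte markers had -0.10 (2 of 4 higher) and 0.07 (3 of 4 higher), and epithelial markers -0.17 (1 of 8 higher) and -0.04 (3 of 8 higher). The part of any of these in the values of the matrix genes was not tested.

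The test was limma's moderated test on log2(value + 3.03 normalized counts), 2-sided, with Benjamini-Hochberg adjustment over all 14692 features. It called 0% of features in each of the pregnancy comparisons. On the ovulation side 5 of the 48 genes had an unadjusted p below 0.05 (1 higher and 4 lower), beside 3.5% of all features, and so had 5 on the other side (1 higher and 4 lower), beside 4.55%. COL4A3BP, the gene that is no collagen, was among the lower ones on the other side, and without it 4 genes were left there. Groups did not overlap for 1 gene of the set on each side. COL6A6 was the 1 gene wholly higher in PI than in CI, beside 0.191% of all features, and 0 were wholly lower, beside 0.402%. The gap of COL6A6 was less than 1 read of PI4. COL12A1 was the 1 gene wholly lower in PC than in CC, beside 0.272%, and 0 were wholly higher, beside 0.313%.

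**Figure D2:**
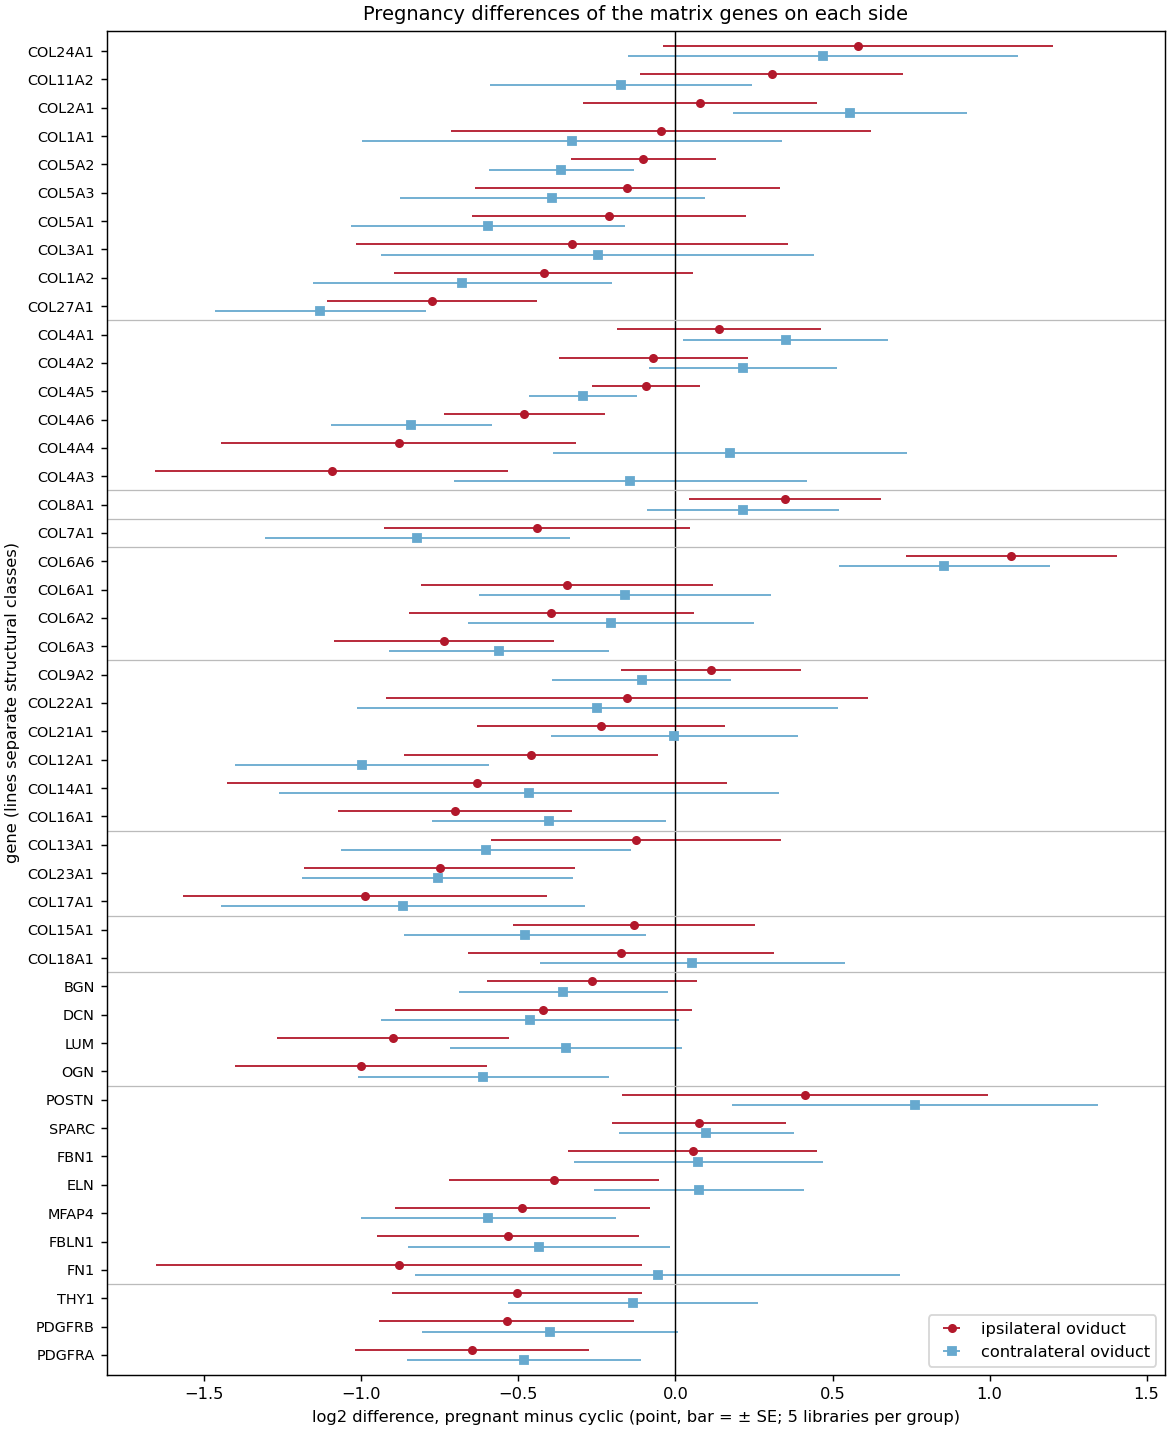
Log2 difference of pregnant minus cyclic mares for 47 genes (COL4A3BP left out), as points with bars of ± SE, circles for the ipsilateral and squares for the contralateral oviduct; grey lines separate structural classes. Most points lie left of 0, COL6A6 stands farthest to the right at 1.07 and 0.86, and COL27A1 is farthest to the left on the contralateral side at -1.13.

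Among the fibrillar collagens, 3 of 10 had higher and 7 lower values in pregnant mares on the ovulation side (median -0.13), and 2 and 8 on the other (median -0.35). COL1A1, one of the chains of collagen I, the main fibril former of connective tissue, had 122, 278, 1450, 238 and 158 normalized counts in PI1 to PI5, against 215, 435, 493, 238 and 200 in CI1 to CI5. In the contralateral oviduct it had 121, 162, 639, 251 and 127 in PC1 to PC5, against 203, 1048, 596, 130 and 75.9 in CC1 to CC5. The groups overlapped widely: PI3 was the highest library and CC5 the lowest, 19.1-fold apart. The log2 differences of -0.05 ± 0.67 (SE; 95% interval -1.44 to 1.34) and -0.33 ± 0.67 were smaller than their errors.

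COL1A2, the partner chain in collagen I, had 220, 753, 1784, 396 and 604 normalized counts in PI1 to PI5, against 772, 1024, 623, 1116 and 558 in CI1 to CI5. It had 351, 506, 1315, 518 and 476 in PC1 to PC5, against 756, 1987, 1401, 792 and 365 in CC1 to CC5. PI1 was the lowest and CC2 the highest library, and the differences were -0.42 ± 0.48 and -0.68 ± 0.48. COL3A1, the collagen of fine reticular fibrils, had 143, 445, 1985, 322 and 207 in PI1 to PI5, against 328, 782, 706, 464 and 320 in CI1 to CI5. It had 317, 238, 890, 299 and 156 in PC1 to PC5, against 231, 1617, 963, 180 and 114 in CC1 to CC5. As for COL1A1, PI3 was its highest library and CC5 its lowest, and the differences were -0.33 ± 0.69 and -0.25 ± 0.69. COL5A1 and COL5A2, chains of the collagen V that starts fibrils, differed by -0.21 and -0.10 on the ovulation side and by -0.60 ± 0.44 and -0.36 ± 0.23 on the other.

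COL27A1, a fibrillar collagen known from cartilage and some epithelia, had the lowest p of the set in the contralateral comparison. It had 177, 334, 199, 141 and 163 normalized counts in PC1 to PC5, against 798, 375, 311, 421 and 362 in CC1 to CC5. In the ipsilateral oviduct it had 176, 276, 137, 267 and 358 in PI1 to PI5, against 634, 205, 654, 263 and 426 in CI1 to CI5. In the contralateral oviduct PC2, above CC3, was the library that made the groups overlap; on the ovulation side several libraries did. The differences were -1.13 ± 0.34 (95% interval -1.83 to -0.43, adjusted p = 1 by limma) and -0.78 ± 0.34 (adjusted p = 0.999 by limma). COL24A1, a minor fibrillar collagen, had 211, 162, 139, 169 and 90.9 in PI1 to PI5, against 36.7, 58.4, 119, 121 and 293 in CI1 to CI5, a difference of 0.58 ± 0.62. CI5 lay above all pregnant libraries, and CC4 and CC5 stood at 271 and 267 against 20.1 to 40.8 in CC1 to CC3.

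**Figure D3:**
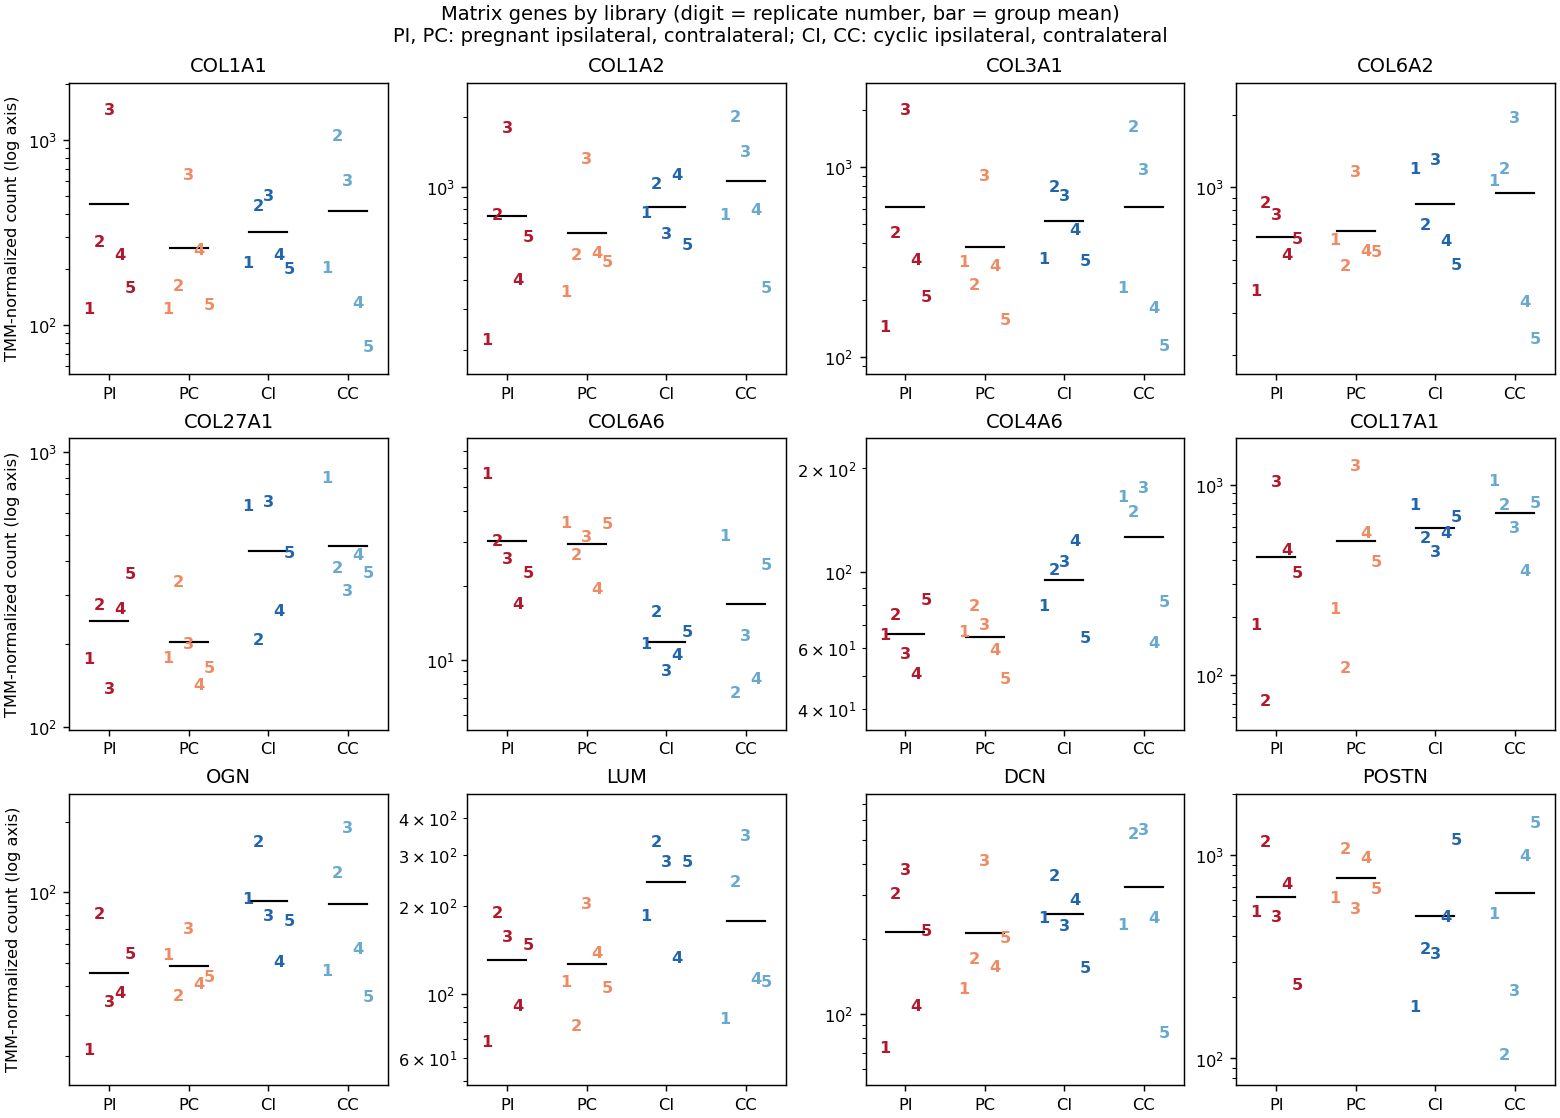
Normalized counts (log axis) of 12 genes by group, each digit a library with that replicate number and each bar the group mean. COL6A6 in PI lies above CI by a narrow gap, while COL1A1 ran from 75.9 in CC5 to 1450 in PI3 with the groups overlapping.

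The small leucine-rich proteoglycans bind collagen fibrils and limit their width. All 4 had lower fitted values in pregnant mares on each side, with medians of -0.66 (ipsilateral) and -0.41 (contralateral). OGN, osteoglycin, had 21.1, 80.7, 33.9, 36.9 and 54.3 normalized counts in PI1 to PI5, against 93.7, 163, 79.2, 50.4 and 75.0 in CI1 to CI5. PI1 was the lowest of all 20 libraries, and PI2 and PI5 overlapped with the cyclic group. The difference was -1.0 ± 0.40 (adjusted p = 0.999 by limma). In the contralateral oviduct OGN had 53.8, 35.8, 69.7, 40.3 and 43.2 in PC1 to PC5, against 46.1, 121, 188, 56.8 and 35.6 in CC1 to CC5, where CC2 and CC3 were high and the difference was -0.61 ± 0.40.

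LUM, lumican, had 68.0, 189, 156, 90.6 and 146 normalized counts in PI1 to PI5, against 184, 330, 281, 132 and 282 in CI1 to CI5. All but CI4 of the cyclic ipsilateral libraries lay at or above 184, and PI2 was the 1 pregnant ipsilateral library above that value. Its differences were -0.90 ± 0.37 (adjusted p = 0.999 by limma) and, contralateral, -0.35 ± 0.37. DCN, decorin, differed by -0.42 ± 0.47 and -0.46 ± 0.47, and BGN, biglycan, by -0.27 ± 0.33 and -0.36 ± 0.33, each within about its error.

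The collagen VI genes encode the beaded filaments around cells, and here the chains differed in sign. COL6A6 had 56.2, 30.1, 25.5, 16.8 and 22.4 normalized counts in PI1 to PI5, against 11.6, 15.5, 9.0, 10.4 and 12.9 in CI1 to CI5. The lowest pregnant library lay above the highest cyclic one, and the means were 30.2 ± 15.3 and 11.9 ± 2.48 (SD, n = 5 each). That separation was narrow: the 16.8 of PI4 came from 10 reads and the 15.5 of CI2 from 26. In PI4 1 read is 1.68 normalized counts, more than the gap between these libraries. The difference was 1.07 ± 0.34 (95% interval 0.37 to 1.77, adjusted p = 0.999 by limma). In the contralateral oviduct it had 35.5, 26.4, 31.2, 19.3 and 35.5 in PC1 to PC5, against 31.6, 7.32, 12.5, 8.35 and 24.1 in CC1 to CC5. There CC1 and CC5 overlapped with the pregnant group, and the difference was 0.86 ± 0.34 (adjusted p = 1 by limma). COL6A1, COL6A2 and COL6A3, the chains of the common collagen VI molecule, differed by -0.34 ± 0.46, -0.39 ± 0.45 and -0.74 ± 0.35 on the ovulation side and by -0.16, -0.21 and -0.56 ± 0.35 on the other.

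Fibril-associated collagens link fibrils to their surroundings. On the ovulation side 1 of 6 was higher and 5 lower (median -0.35), and on the other 0 and 6 (median -0.33). COL12A1, found on fibrils of dense and loaded tissue, had 317, 323, 302, 160 and 285 normalized counts in PC1 to PC5, against 1561, 561, 418, 334 and 375 in CC1 to CC5. All of CC lay above PC, and CC1 was far above the rest. The difference was -1.0 ± 0.40 (adjusted p = 1 by limma) and, without CC1, -0.62; on the ovulation side it was -0.46 ± 0.40, with 209, 432, 190, 136 and 380 in PI1 to PI5, against 660, 392, 414, 180 and 230 in CI1 to CI5. COL16A1, a fibril-associated collagen of several tissues, differed by -0.70 ± 0.37 and -0.40. COL22A1, a collagen of tissue junctions, had the widest range of the tested genes with enough reads, 38.4-fold, with 252 in CI1.

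COL14A1, another collagen of the fibril surface, differed more between the libraries of a group than between groups. It had 696, 1302, 356, 2203 and 589 normalized counts in PI1 to PI5 and 684, 1654, 313, 2795 and 602 in PC1 to PC5. In cyclic mares it had 2380, 1987, 157, 1802 and 2804 in CI1 to CI5 and 3001, 1782, 188, 1264 and 2358 in CC1 to CC5. Number 3 was lowest in every group, and the pregnancy differences were -0.63 ± 0.80 and -0.47 ± 0.80.

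Basement membrane and anchoring collagens hold the epithelium to its stroma. Of the 6 collagen IV genes, 1 was higher and 5 lower on the ovulation side (median -0.29), and 3 and 3 on the other (median 0.02). COL4A6, a chain of some epithelial and smooth muscle basement membranes, had 66.7, 79.2, 69.7, 59.0 and 48.8 normalized counts in PC1 to PC5, against 165, 149, 175, 61.8 and 81.6 in CC1 to CC5. CC1 to CC3 were about level and high, and CC4 was the 1 cyclic contralateral library within the range of PC. The difference was -0.84 ± 0.26 (adjusted p = 1 by limma). On the ovulation side it had 65.6, 74.9, 57.7, 50.3 and 82.7 in PI1 to PI5, against 79.2, 101, 106, 122 and 64.3 in CI1 to CI5, a difference of -0.48 ± 0.26.

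COL4A1 and COL4A2, the chains found in nearly all basement membranes, differed by 0.14 ± 0.33 and -0.07 on the ovulation side and by 0.35 ± 0.33 and 0.22 ± 0.30 on the other. COL4A5, the usual partner of COL4A6, was steady, between 319 and 657 over all 20 libraries, a 2.06-fold range, and differed by -0.09 ± 0.17 and -0.30 ± 0.17. COL4A3 and COL4A4, chains known from kidney filter membranes, differed by -1.09 ± 0.56 and -0.88 ± 0.56 on the ovulation side and by -0.14 and 0.17 on the other. COL7A1, which forms anchoring fibrils under stratified epithelia, differed by -0.44 ± 0.49 and -0.82 ± 0.49.

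COL17A1, a transmembrane collagen of the hemidesmosomes that fix epithelial cells to the membrane below, had 180, 72.0, 1023, 453 and 343 normalized counts in PI1 to PI5, against 775, 519, 439, 554 and 676 in CI1 to CI5. In the contralateral oviduct it had 220, 108, 1252, 554 and 389 in PC1 to PC5, against 1037, 782, 589, 351 and 798 in CC1 to CC5. Pregnant number 3 was the highest and pregnant number 2 the lowest on both sides, so the differences of -0.99 ± 0.58 and -0.87 ± 0.58 had wide errors. COL23A1, another transmembrane collagen, differed by -0.75 and -0.76 ± 0.43. COL18A1, a basement membrane collagen from which endostatin is cut, had 1422, 2164, 735, 1441 and 3312 in PI1 to PI5, against 3655, 1363, 2732, 854 and 1693 in CI1 to CI5. In the contralateral oviduct COL18A1 had 1763, 2353, 1013, 1432 and 2872 in PC1 to PC5, against 4639, 1642, 2574, 574 and 1270 in CC1 to CC5. The groups overlapped on both sides, with CC1 highest and CC4 lowest. COL8A1, a short network collagen of vessels, differed by 0.35 ± 0.31 and 0.22.

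Matrix glycoproteins split in direction, with 3 of 7 higher and 4 lower on the ovulation side (median -0.39), and 4 and 3 on the other (median 0.07). POSTN, periostin, which binds collagen and integrins, had 523, 1160, 493, 720 and 229 normalized counts in PI1 to PI5, against 179, 343, 326, 493 and 1181 in CI1 to CI5. It had 613, 1069, 542, 960 and 680 in PC1 to PC5, against 510, 104, 214, 987 and 1432 in CC1 to CC5. Cyclic number 5 was the highest on both sides, and the differences were 0.41 ± 0.58 and 0.76 ± 0.58. FN1, fibronectin, had 18.7, 200, 231, 136 and 39.0 in PI1 to PI5, against 70.5, 427, 234, 151 and 107 in CI1 to CI5. It had 63.5, 192, 292, 189 and 55.4 in PC1 to PC5, against 65.9, 511, 497, 90.2 and 28.7 in CC1 to CC5. Its libraries spread 27.2-fold, with the lowest value, that of PI1, resting on 8 reads. The differences were -0.88 ± 0.77 and -0.06 ± 0.77.

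FBN1, the fibrillin of microfibrils, and SPARC, a collagen-binding protein, lay near 0 on both sides, at 0.05 and 0.07 for FBN1 and 0.07 and 0.10 for SPARC, with errors of 0.40 and 0.28. FBLN1, a fibulin of elastic fibres, differed by -0.53 and -0.44 ± 0.42, and MFAP4, a microfibril-associated protein, by -0.49 and -0.60 ± 0.41. ELN, elastin, had 1.68 to 15.9 normalized counts, close to the counting limit, and differed by -0.39 and 0.08 ± 0.33. The surface markers of mesenchymal cells were lower in all 3 cases on the ovulation side (median -0.54) and the other (median -0.40). PDGFRA and PDGFRB, the receptors for platelet-derived growth factor on fibroblasts and pericytes, differed by -0.65 ± 0.37 and -0.54 ± 0.41 on the ovulation side and by -0.48 and -0.40 on the other. THY1, a surface glycoprotein of fibroblasts, differed by -0.51 ± 0.40 and -0.13. COL4A3BP, the gene that is no collagen, varied 1.52-fold over the libraries and differed by -0.14 ± 0.12 and -0.29 ± 0.12 (adjusted p = 1 by limma).

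A contrast averaging the 2 sides was added after the data had been seen, with the pregnant replicate number as a block. The cyclic libraries were taken as independent in it, although some cyclic numbers also matched between the sides. Its errors and p values may therefore be too small. It called 0% of all features and 0 of the 48 genes. An unadjusted p below 0.05 was found for 8 genes (1 higher and 7 lower), beside 5.82% of all features. In it 11 genes were higher and 37 lower, beside 49.9% of all features higher and 50.1% lower. Their median was -0.31, beside -0.00 over all features, and -0.15 without PI1, PI4 and CI3. The lowest p values were those of COL6A6 (0.96 ± 0.28, adjusted p = 0.447 by limma), COL27A1 (-0.95 ± 0.30, adjusted p = 0.509) and COL4A6 (-0.66 ± 0.22, adjusted p = 0.545). DESeq2 on the recovered reads, which took the 20 libraries as independent, called those 3 genes, with adjusted p of 0.0248, 0.0121 and 0.0146, among 190 features or 1.29% of those it tested. With the bare number as a block, limma called COL6A6 (adjusted p = 0.0374), beside 0.463% of all features.

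The side of ovulation was asked about within each status, first without pairing libraries by replicate number, which can make the errors too wide. In pregnant mares 21 of the 48 genes were higher and 27 lower in the ipsilateral oviduct (median -0.05), beside 44.6% of all features higher and 55.4% lower; 0% of features were called, and an unadjusted p below 0.05 was found for 0 genes of the set beside 0.762% of features. The lowest p was that of ELN (-0.45 ± 0.33, adjusted p = 0.999 by limma), followed by COL13A1, a transmembrane collagen of the neuromuscular junction, and COL11A2, a cartilage collagen. The PI and PC values of every gene of the set overlapped, beside 0.0476% of features wholly higher and 0.0885% wholly lower in PI. In cyclic mares 25 were higher and 23 lower (median 0.01), beside 51.4% of all features higher and 48.6% lower; 0% of features were called, and at an unadjusted p of 0.05 there were 0 genes beside 0.286%. COL12A1 (-0.67 ± 0.40), LUM (0.58 ± 0.37) and COL4A4 (0.79 ± 0.56) had the lowest p, each with an adjusted p of 1 by limma. Here too the CI and CC values of every gene of the set overlapped, beside 0.0272% of features wholly higher and 0.0408% wholly lower in CI.

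Whether the pregnancy difference depended on side was tested as an interaction, ipsilateral minus contralateral. The fit did not pair libraries by replicate number, which can make its errors too wide. It called 0% of features, and an unadjusted p below 0.05 was found for 0 genes of the set beside 0.32% of features; 23 genes were above and 25 below 0, beside 43.4% and 56.6% of all features, with a median of -0.02. COL4A4 (-1.06 ± 0.80), COL4A3 (-0.95 ± 0.80) and LUM (-0.55 ± 0.52) had the lowest p, each with an adjusted p of 1 by limma. OGN, with -1.0 and -0.61 on the 2 sides, had an interaction of -0.39 ± 0.57, and COL27A1 one of 0.36 ± 0.47, so neither was shown to differ between sides.

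Libraries of the 2 sides that share a replicate number resembled each other in pregnant mares, and in cyclic mares for some of the numbers. The labels do not say whether a number stands for the same mare on both sides, nor how many mares gave the 20 libraries. Over all features, deviations from the group mean correlated between PI and PC libraries of the same number at 0.530 to 0.700, each library matching its own number best. Between 2 libraries of the same number, COL14A1 differed by 0.186 log2 units on average in pregnant mares, against 1.41 between different numbers. COL17A1 differed by 0.322, against 1.72, and COL18A1 by 0.221, against 0.865. COL6A2 stood apart from these at 0.476, against 0.520. Of the 48 genes, 40 were closer within a number in pregnant mares, beside 86.5% of all features, and 44 in cyclic mares, beside 69.8%.

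In all 5 pregnant pairs COL17A1, THY1 and COL2A1, the cartilage collagen, were lower in the ipsilateral library, 3 of 48 genes beside 7.57% of all features, and COL24A1 was higher, 1 of 48 beside 4.88%. COL24A1 differed little in PI3, with 139 against 134 in PC3, and more in PI4, with 169 against 62.0 in PC4. With the number as a block, limma gave COL17A1 a difference of -0.32 ± 0.15 (adjusted p = 0.822), and 0 of the 48 genes had an unadjusted p below 0.05, beside 3.16% of all features in that fit.

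Much of the variation of the set ran along libraries rather than groups. Of the 47 genes without COL4A3BP, 16 were highest in CC3, and 32 had CC3 among their 5 highest libraries. CC2 was among the 5 highest for 30, and PC3 for 21. At the other end 12 genes were lowest in CC5 and 7 in PI1. The median deviation of the 47 genes from their means was 1.04 log2 units in CC3 and 0.75 in CC2, against -0.53 in CC5, -0.42 in CC4, -0.34 in PC2, -0.33 in PC5 and -0.31 in PI1, so the cyclic contralateral group alone covered the range of all libraries. POSTN and COL24A1 ran the other way in it, at 104 and 20.1 in CC2 and 1432 and 267 in CC5. The fibroblast markers outside the set were also highest in CC3 and CC2 among all libraries; their part in these values was not tested.

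**Figure D4:**
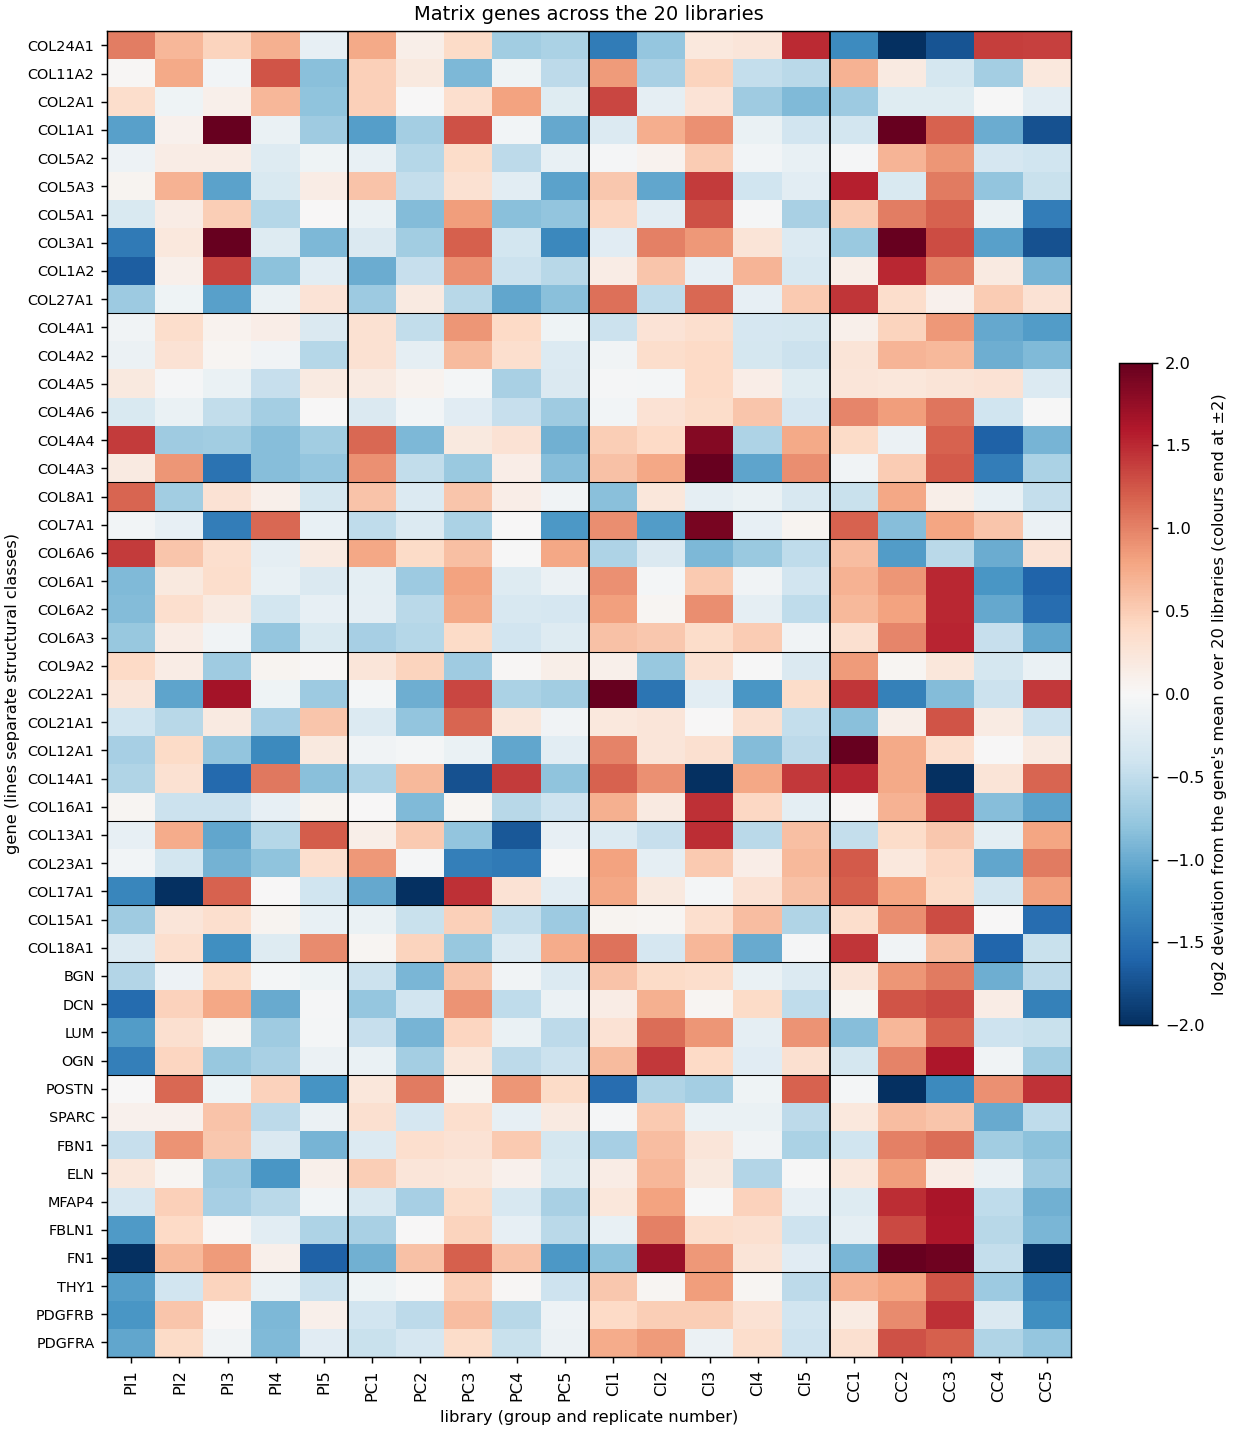
Log2 deviation of each gene from its own mean over the 20 libraries (colour, ends at ±2), genes in rows by structural class, libraries in columns. CC3 and CC2 are red for most genes, with medians of 1.04 and 0.75, CC5 and CC4 are blue with -0.53 and -0.42, and COL14A1 is blue in every library numbered 3.

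Chains that share a molecule were compared as ratios within a library, which cancel the library's scale. COL6A1 over COL6A2 ran from 0.502 in CI3 to 0.778 in PI4, a 1.55-fold range, while COL6A1 itself varied 8.78-fold and COL6A2 8.30-fold. COL4A1 over COL4A2 ran from 0.669 in CI1 to 1.05 in PI5, or 1.57-fold, while the genes varied 4.09-fold and 3.20-fold. In the RefSeq annotation of the horse (assembly TB-T2T) each of these gene pairs lies side by side with no protein-coding gene between.

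Other ratios were looser. COL1A1 over COL1A2, whose genes lie on different chromosomes, ran from 0.165 in CC4 to 0.813 in PI3, or 4.94-fold, with means of 0.520 ± 0.214 (PI), 0.381 ± 0.0997 (PC), 0.414 ± 0.226 (CI) and 0.319 ± 0.153 (CC) (SD, n = 5 each). COL3A1 over COL5A2, neighbours in the genome that belong to different collagens, ran from 0.615 in CC5 to 7.33 in PI3, or 11.9-fold. COL4A5 over COL4A6, also neighbours, averaged 7.43 ± 0.873 (PI), 7.14 ± 1.27 (PC), 5.65 ± 0.951 (CI) and 5.17 ± 2.72 (CC). That ratio ranged 2.89-fold, and those of the neighbours LUM over DCN 5.14-fold and COL4A3 over COL4A4, with few reads, 10.2-fold. On different chromosomes, COL6A3 over COL6A2 ranged 2.41-fold, PDGFRB over PDGFRA 2.16-fold and COL3A1 over COL1A2 4.97-fold. A side-by-side position went with a steady ratio for some pairs and not for others, and pairs on different chromosomes differed as well. Ratios of reads depend on gene length as well as level and are compared here between libraries only.

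**Figure D5:**
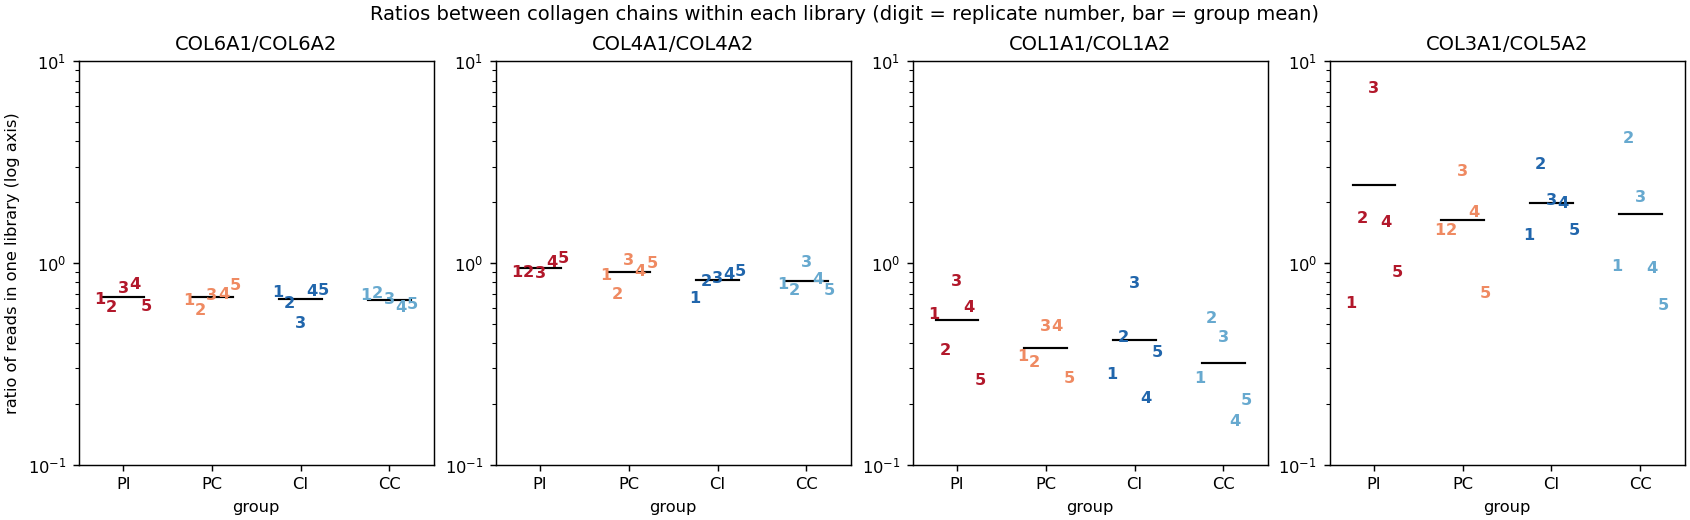
Ratio of reads of 2 collagen genes in the same library (log axis, the same range in each panel), by group, each digit a library with that replicate number and each bar the group mean. COL6A1/COL6A2 stays between 0.502 and 0.778 and COL4A1/COL4A2 between 0.669 and 1.05, whereas COL3A1/COL5A2 reaches 7.33 in PI3.

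Genes that act on these matrix proteins were counted from lists of textbook knowledge, and none of them passed the test in any comparison. Of 31 genes that fold, modify and crosslink collagen, 15 were higher and 16 lower in pregnant mares on the ovulation side (median -0.04), and 12 and 19 on the other (median -0.08). CRTAP, part of the enzyme complex that 3-hydroxylates prolines of collagen, had the lowest p, with -0.42 ± 0.21 and -0.45 ± 0.21. Of 17 laminins and other basement membrane genes, 3 were higher and 14 lower (median -0.44), and 4 and 13 on the other side (median -0.27). LAMB1, a laminin beta chain, averaged 246 ± 115 normalized counts in PI and 250 ± 89.5 in PC, against 482 ± 166 in CI and 557 ± 262 in CC (SD, n = 5 each), with differences of -1.0 ± 0.39 and -1.04 ± 0.39. FREM1, a protein of the epithelial basement membrane, differed by -0.91 ± 0.40 and -1.11 ± 0.40 (adjusted p = 1 by limma).

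Of 19 receptors for collagen and fibronectin, 4 were higher and 15 lower on the ovulation side (median -0.16), and 8 and 11 on the other (median -0.09). ITGA2, the alpha chain of a collagen-binding integrin of epithelia, averaged 504 ± 160 in PI and 548 ± 143 in PC, against 778 ± 198 in CI and 858 ± 312 in CC (SD, n = 5 each), with differences of -0.65 ± 0.27 and -0.60 ± 0.27. Of 35 other genes of matrix assembly, 9 were higher and 26 lower on each side (medians -0.27 and -0.16). LTBP1, which stores latent TGF-beta in the matrix, differed by -0.62 ± 0.28 and -0.61. Of 14 genes of TGF-beta and platelet-derived growth factor signalling, which induces collagen genes in fibroblasts, 5 were higher and 9 lower (median -0.08), and 6 and 8 on the other side (median -0.11). TGFB2, one of its ligands, averaged 356 ± 129 in PI and 350 ± 99.9 in PC, against 485 ± 42.5 in CI and 496 ± 97.9 in CC (SD, n = 5 each), with differences of -0.52 ± 0.23 and -0.52.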

How the data were processed

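RNA of oviduct epithelium was measured in 20 libraries, 5 for each combination of pregnancy status and side. Per the labels' protocols, RNA was extracted with a column kit, depleted of ribosomal RNA and turned into strand-specific libraries. Another label gives polyA RNA, and which holds is not settled. CASAVA 1.8 is named in the submitters' processing notes. Aligner, counter, genome build and annotation were not given in the sources used here, and so no coordinates are printed, and genes that overlap or share sequence are uncertain.

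The authors deposited TMM-normalized counts, a signal equal to reads times 1 factor per library. Dividing by each column's step recovered whole reads for 100% of values (tolerance 0.01 reads). Libraries held 2795168 to 10126484 reads.

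Features above 1 CPM in at least 5 libraries were kept (14692 of 26740). One limma model (3.58.1, R 4.3.3; trend, robust, 2-sided, Benjamini-Hochberg at 0.05) with 4 group means was fitted to log2(value + 0.5 CPM, or 3.03 normalized counts) over all 20 libraries; folds on this scale understate changes of low genes. edgeR 4.0.16 and DESeq2 1.42.0 on the recovered reads, other filters, scalings and pseudocounts, replicate blocks and libraries left out were alternatives. The procedure was tested on simulated data with 100 features changed 2-fold and 100 changed 4-fold in PI. Against CI it recovered 50 and 78 of them, with 1 false call among 129. Changes of these sizes can thus be missed.

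The replicate numbers pair pregnant libraries of the 2 sides: same-number deviations correlated at 0.530 to 0.700 in every pair. Between cyclic sides this held for numbers 1, 2 and 5 (0.295, 0.679 and 0.621), each matching its own number best, and not for 3 and 4 (0.0228 and -0.0408), so cyclic libraries were not taken as pairs. Between pregnant and cyclic libraries it held for number 2 only, at 0.587 (PI and CI) and 0.488 (PC and CC). The other numbers ran from -0.396 to 0.123 there, and none matched its own number best. Libraries of a group differed by more than sampling noise in all 40 pairs (chi-square 16.9 to 143 for each degree of freedom).

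The genes and lists were chosen with earlier results of these data known. Named genes are 28 fixed symbols (27 found), the 3 of the set with the lowest p in each comparison and the lowest p in each further list; COL12A1 in the pregnancy comparisons, COL14A1, COL16A1, COL2A1, COL22A1, COL23A1, COL24A1, COL4A5, COL8A1 and FREM1 were named after their values were seen.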

Additional observations from a re-analysis of the deposited data

Results flagged for a closer look

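In 6 of 192 tests of a single library within a group of 5, over the 48 genes of the set that were tested, 1 library stood apart from the other four by Dixon's criterion, where chance flags about 1 in 20. COL4A4 was high in PI1 at 35.1 normalized counts, against 5.03 to 5.94 in PI2 to PI5. COL14A1 was low in CI3 at 157, and COL4A5 was low in CC5 at 413. COL12A1 was low in PC4 at 160, COL6A2 was high in PC3 at 1146, and PDGFRB was low in CI5 at 78.2.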

How the results depend on the processing

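No gene of the set was called in the 5 planned comparisons under any alternative run. The count of all features called, 0 in the contralateral pregnancy comparison, became 1 on CPM without TMM scaling and 12 with DESeq2. For the mean of both sides it was 0, and became 4 on CPM without TMM, 18 with edgeR, 190 with DESeq2, 16 with no replicate block, 68 with the bare number as replicate block, and 0 to 7 with 1 library left out. Of the set, DESeq2 then called 3 genes and the bare-number block 1, COL6A6 (adjusted p = 0.0374 by limma). That block also ties pregnant to cyclic libraries, which the numbers do not pair apart from number 2. The causes were not tested.

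With an unadjusted p below 0.05, edgeR had 495 and 844 features in the ipsilateral and contralateral pregnancy comparisons and DESeq2 560 and 950, against 514 and 669 by limma. With 1 library left out, the median of the 48 genes ran from -0.42 to -0.17 (ipsilateral), -0.51 to -0.09 (contralateral), -0.12 to 0.09 (side in pregnant), -0.18 to 0.14 (side in cyclic) and -0.20 to 0.17 (interaction). With edgeR and DESeq2 these medians were -0.28 and -0.30, -0.51 and -0.50, 0.01 and 0.01, -0.15 and -0.14, and 0.20 and 0.22. Single genes changed sign in 590 of 8844 alternatives, none of them a call. COL6A6 stayed at 0.76 to 1.31 (ipsilateral) and COL27A1 at -1.33 to -0.91 (contralateral). Depth limits ELN, COL4A4, COL2A1 and COL11A2, which had few reads, and COL6A6, which had 5 reads in CI3 and in CC4. It also limits FN1 and OGN in PI1, with 8 and 9 reads.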
